A study of Mus musculus with 8 samples.

Results

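The 8 heavy chain constant genes of the mouse immunoglobulin locus, Ighm, Ighd, Ighg3, Ighg1, Ighg2b, Ighg2c, Ighe and Igha, were followed across 8 RNA-seq libraries of splenic B cells. They were taken by gene symbol from count tables that list 55401 gene identifiers in each library, and all 8 were counted in every library. The libraries form 4 groups of 2. Germinal center B cells came from mice with a B cell knockout of Jmjd1c (KO) and from wild-type (WT) mice, and were sorted by FACS. Activated B cells came from KO and from WT mice, being B cells pulled from spleen with a PanB biotin reagent and streptavidin beads and then stimulated in vitro. All mice were C57BL/6. Jmjd1c encodes a Jumonji-domain protein of a histone demethylase family. The labels do not give the driver of the B cell knockout, the deleted exons, the stimulus, any immunization, the age of the mice or whether replicates came from separate mice, so p-values measure the spread between these libraries, which may be technical.

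A B cell first transcribes Ighm and Ighd together from its rearranged variable gene, and alternative processing of that RNA gives IgM and IgD. In class switch recombination, DNA breaks are made in switch regions. The constant genes from Ighm up to, but not including, the chosen downstream gene are deleted. The cell then makes IgG, IgE or IgA with the same antigen specificity. Germinal centers are where activated B cells divide, mutate their antibody genes and are selected, and many of their cells have switched. Which class is made depends on cytokines, with IL-4 directing mouse cells to IgG1 and IgE, interferon-gamma to IgG2c, and TGF-beta to IgG2b and IgA. Each downstream gene also gives non-coding germline transcripts before it is switched to.

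In the GRCm38 annotation the 8 genes lie on the minus strand of chromosome 12, in the order in which they are met from the variable genes. Ighm spans 113418558 to 113422730 and Ighd 113406604 to 113416324. Ighg3 spans 113356224 to 113361232, Ighg1 113325240 to 113330523, Ighg2b 113302965 to 113307933 and Ighg2c 113285325 to 113288932. Ighe spans 113269260 to 113273248 and Igha 113254830 to 113260236, so that Igha starts 162 kb downstream of the start of Ighm. No exon base of these genes is shared with another annotated gene. Counts per gene do not separate membrane from secreted forms, or germline from productive transcripts.

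The 4 IgG genes are close relatives, and the hinge exon, which joins the antigen-binding arms to the Fc part, is where they differ visibly. The hinge exons in the GENCODE M21 transcripts are shown because reads must be told apart by such differences, with in-frame cysteine codons, which can form disulfide bonds between the heavy chains, in capitals. On the minus strand of GRCm38 they lie at chr12:113360529-113360576 in Ighg3, chr12:113329844-113329882 in Ighg1, chr12:113307261-113307326 in Ighg2b and chr12:113288263-113288325 in Ighg2c. Each is written 5′ to 3′ as in the transcript.
Ighg3: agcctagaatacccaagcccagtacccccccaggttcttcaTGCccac
Ighg1: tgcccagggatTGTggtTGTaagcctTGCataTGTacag
Ighg2b: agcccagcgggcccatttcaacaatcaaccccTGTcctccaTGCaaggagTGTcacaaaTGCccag
Ighg2c: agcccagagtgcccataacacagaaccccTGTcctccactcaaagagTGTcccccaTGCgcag
The Ighg3 hinge holds 1 cysteine codon in 48 bases, that of Ighg1 4 in 39, that of Ighg2b 4 in 66 and that of Ighg2c 3 in 63.

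Ighg2b and Ighg2c were the most alike, with 85.9% identity over the coding sequence of their secreted forms, against 75.7% to 77.7% for the other IgG pairs. Their longest shared run is 78 bases, at chr12:113306869-113306946 in Ighg2b and chr12:113287869-113287946 in Ighg2c, and is shown because reads lying within it cannot be assigned to either gene.
Ighg2b and Ighg2c: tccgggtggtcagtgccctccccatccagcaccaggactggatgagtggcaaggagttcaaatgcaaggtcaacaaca
Of all 50-base windows, 5.49% of those in Ighg2c, 4.15% in Ighg2b, 1.58% in Ighg3 and 0.393% in Ighg1 also occur in another of the 8 genes, and none of those in Ighm, Ighd, Ighe or Igha do. At 75 bases 14 windows of Ighg3, 20 of Ighg2b and 6 of Ighg2c are shared, and Ighg2b shares more of them with Ighg3 than with Ighg2c. At 100 bases no window is shared. The read length and the treatment of multiply mapped reads are not given, so small differences among the IgG genes carry this uncertainty. Reads that were not unique were 9.21% to 9.23% of the total in KO and 6.88% to 6.99% in WT germinal center B cells, and 4.57% to 4.75% in KO and 4.37% to 4.54% in WT activated B cells. Their part in the results below was not tested.

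The libraries held 8777425 to 11414559 counts on genes, and 61990 to 127834 of them fell on the 8 constant genes. Levels are given as CPM, counts relative to library size, on 1 TMM scale over the 8 libraries. Jmjd1c itself was at 163 and 158 CPM in KO against 194 and 178 CPM in WT germinal center B cells, and at 136 and 153 CPM in KO against 274 and 282 CPM in WT activated B cells. Its log2 fold change was -0.20 ± 0.04 (SE, edgeR adjusted p = 1.67e-05) in germinal center and -0.94 ± 0.06 (SE, edgeR adjusted p = 1.81e-11) in activated B cells, so transcripts remained in all KO libraries. The 10 germinal center markers summed to 4265 to 4284 CPM in KO and 6252 to 6365 CPM in WT germinal center libraries, and to 232 to 243 CPM in KO and 236 to 237 CPM in WT activated libraries. The 8 resting follicular B cell markers, such as Ccr7 and Klf2, had their highest sums in the libraries labelled activated, at 3966 to 4019 CPM in KO and 3990 to 3995 CPM in WT. Not all of them followed the sum. Cr2 was at 387 and 397 CPM in KO and 294 and 293 CPM in WT germinal center libraries, but at 169.5 and 171.0 CPM in KO and 196.5 and 191.8 CPM in WT activated libraries. Fcer2a was highest in KO germinal center libraries, at 796 and 779 CPM, against 709 and 720 CPM in KO activated libraries. Mki67, which marks dividing cells, was at 2223 and 2249 CPM in KO against 2755 and 2643 CPM in WT germinal center cells, and at 77.9 and 80.6 CPM in KO against 70.2 and 68.4 CPM in WT activated cells.

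The composition of heavy chain transcripts separated the 4 groups. Ighm and Ighd, the unswitched genes, together took 62.0% and 61.9% of heavy constant counts in KO germinal center B cells, against 27.1% and 27.0% in WT germinal center B cells. The 4 IgG genes took 37.8% and 37.9% in KO against 72.4% and 72.4% in WT germinal center libraries. Among activated cells Ighm and Ighd took 90.7% and 91.2% in KO libraries and 95.0% and 95.3% in WT libraries. The IgG share there was 7.17% and 6.79% in KO against 2.76% and 2.53% in WT. KO therefore held a larger unswitched share than WT among germinal center cells and a smaller one among activated cells, without overlap between libraries in either case. In activated cells the Ighm share alone overlapped, at 63.4% and 62.7% in KO against 63.6% and 63.2% in WT, while the Ighd share was 27.3% and 28.5% in KO against 31.4% and 32.0% in WT. With 2 libraries against 2, the smallest two-sided p of an exact permutation test is 0.333, which both differences had, so that test cannot reach 0.05 here for any share.

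**Figure D1:**
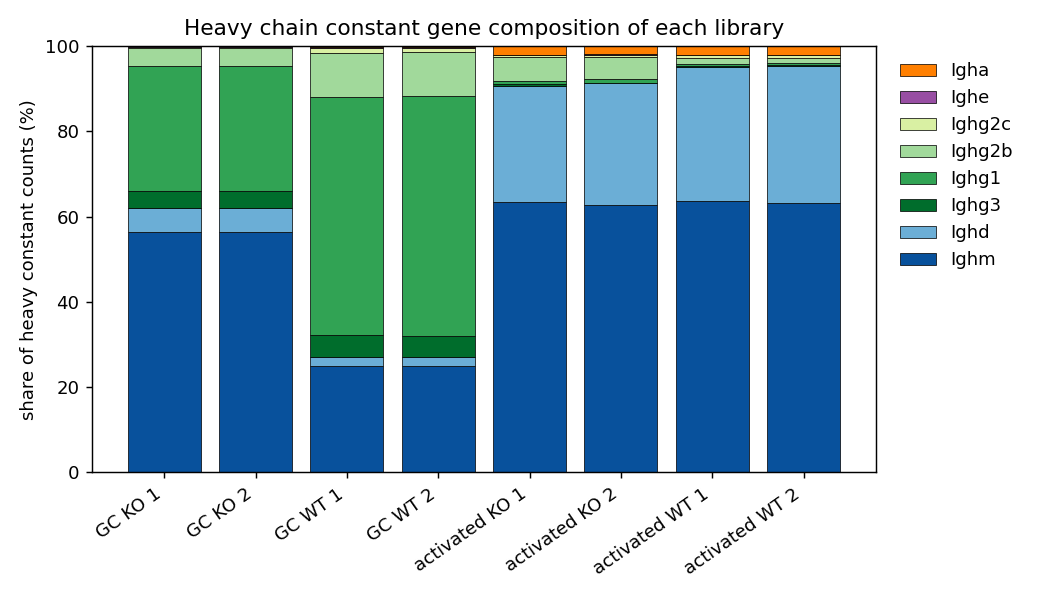
Each bar is 1 library and shows the percentage of summed heavy chain constant counts taken by each of the 8 genes, for KO and WT germinal center (GC) and KO and WT activated B cells. The blue segments (Ighm and Ighd) reach 62.0% and 61.9% in KO against 27.1% and 27.0% in WT germinal center B cells, and above 90% in the activated libraries.

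Replicates lay close together in composition. The Ighm share was 56.3% (95% exact binomial interval 55.9% to 56.6%) and 56.3% (55.9% to 56.6%) in KO germinal center libraries, against 24.9% (24.6% to 25.3%) and 24.9% (24.6% to 25.2%) in WT germinal center libraries. Such intervals cover counting error only. A chi-square test over the 8 genes found no difference beyond counting noise between the replicates in KO (p = 0.296) or WT germinal center B cells (p = 0.318), and more spread than counting noise in KO (p = 8.33e-09) and WT activated B cells (p = 0.000302). Scaling counts by exon length left the order of the groups as it was, with unswitched shares of 69.0% and 68.9% in KO against 33.5% and 33.5% in WT germinal center libraries, and 92.8% and 93.2% in KO against 96.0% and 96.2% in WT activated libraries. The total also differed. The 8 genes summed to 10119 and 10360 CPM in KO against 6492 and 6581 CPM in WT germinal center B cells, and to 13064 and 12341 CPM in KO against 11145 and 11100 CPM in WT activated B cells.

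Among germinal center B cells, KO libraries carried more Ighm, Ighd and Ighg3 and less of every constant gene downstream of Ighg3. Ighm was at 5695 and 5828 CPM in KO against 1618 and 1639 CPM in WT libraries, a 3.55-fold difference (log2 fold change 1.83 ± 0.03, SE). Ighd, which most mature naive B cells express beside Ighm, was at 579 and 587 CPM in KO against 142 and 141 CPM in WT, a 4.13-fold difference (log2 fold change 2.05 ± 0.04, SE). These were the largest differences of the 8 genes in this comparison. All 8 passed the test, edgeR's quasi-likelihood test with Benjamini-Hochberg adjustment at 0.05, with 3 higher and 5 lower in KO. Over all 13350 genes tested, 50.2% passed, 25.1% higher and 25.1% lower, so passing was common in this comparison. The median log2 fold change of the members was -0.45, against -0.0044 over all genes tested.

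Ighg3, the IgG gene nearest to Ighm, was at 403 and 421 CPM in KO against 336 and 328 CPM in WT germinal center B cells. It rose by 0.31 ± 0.04 on the log2 scale (SE, edgeR adjusted p = 2.69e-17). Ighg1, the gene of the main IgG class of IL-4-driven responses, was at 2955 and 3028 CPM in KO against 3625 and 3700 CPM in WT, and its log2 fold change was -0.29 ± 0.03 (SE, edgeR adjusted p = 2.97e-24). Ighg1 thus fell by much less than its share of heavy constant counts, which was 29.2% and 29.2% in KO against 55.8% and 56.2% in WT. Ighg2b, which encodes a complement-fixing IgG, was at 432 and 438 CPM in KO against 667 and 675 CPM in WT, with a log2 fold change of -0.62 ± 0.03 (SE, edgeR adjusted p = 3.52e-73). Ighg2c, which C57BL/6 mice carry in place of Ighg2a, was at 31.5 and 37.7 CPM in KO against 70.8 and 64.7 CPM in WT, and had the lowest log2 fold change of the 8, -0.96 ± 0.08 (SE, edgeR adjusted p = 1.11e-32).

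The genes of IgE and IgA were scarce in the germinal center libraries. Ighe, the heavy chain of the antibody that arms mast cells and basophils, had 83 and 81 counts in KO against 138 and 175 counts in WT libraries, which is 10.1 and 9.62 CPM in KO against 14.5 and 15.9 CPM in WT. Its log2 fold change was -0.62 ± 0.16 (SE, edgeR adjusted p = 0.000208). Igha, the heavy chain of mucosal IgA, had 107 and 85 counts in KO against 172 and 192 counts in WT, or 13.0 and 10.1 CPM in KO against 18.0 and 17.5 CPM in WT, with a log2 fold change of -0.62 ± 0.14 (SE, edgeR adjusted p = 7.36e-05). Read along the locus, log2 fold changes were positive up to Ighg3, 61.5 kb from the start of Ighm, and negative from Ighg1, 92.2 kb from it, to Igha.

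**Figure D2:**
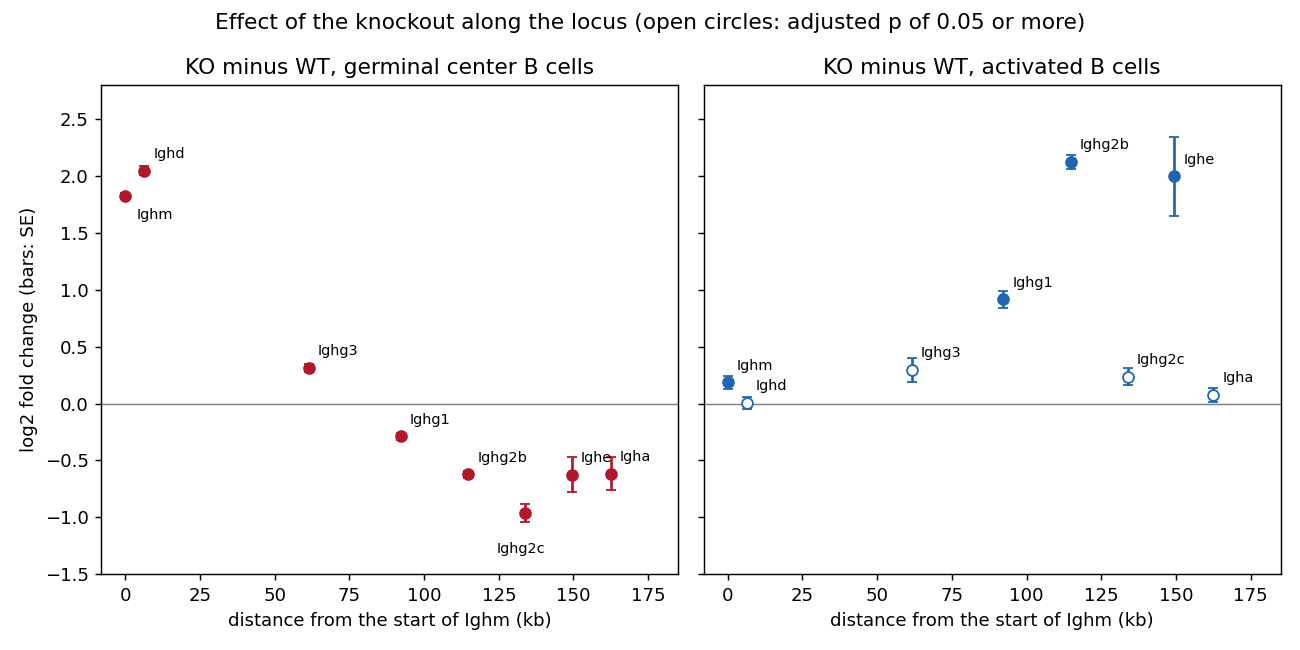
Log2 fold change of each constant gene, KO minus WT, against its distance in kb from the start of Ighm, in germinal center B cells (left) and activated B cells (right). Bars are SE, and open circles mark genes that did not pass at an adjusted p of 0.05; Ighm and Ighd lead on the left, with 1.83 and 2.05, and Ighg2b on the right, with 2.12.

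Markers of other B cell states moved with these differences, in a comparison where 50.2% of all genes tested passed. All 10 germinal center markers were lower in KO germinal center libraries, and all 8 resting follicular markers were higher, with sums of 2154 to 2167 CPM in KO and 915 to 917 CPM in WT. Ccr7, a lymph node homing receptor, was at 67.1 and 70.2 CPM in KO against 8.27 and 9.01 CPM in WT. Of 9 tested plasma cell markers 5 were higher and 2 lower, and their list summed to 1238 to 1246 CPM in KO and 1121 to 1152 CPM in WT. Of 8 pan B cell markers 5 were higher and none lower. Monocyte and macrophage markers (10 of 11 tested higher) summed to 136 to 151 CPM in KO and 45.1 to 45.2 CPM in WT. Mpeg1 gave the largest part of these sums, at 72.3 and 81.6 CPM in KO against 16.1 and 16.7 CPM in WT. Erythroid markers (5 of 5 tested higher) summed to 58.2 to 71.4 CPM in KO and 7.54 to 9.38 CPM in WT. T cell markers (2 of 4 tested higher) summed to 91.1 to 98.0 CPM in KO and 92.5 to 93.7 CPM in WT, mostly from Lck, and the other 9 to 10.8 and 13.2 CPM in KO against 1.89 and 2.82 CPM in WT. Dendritic cell markers (2 of 3 tested higher) summed to 75.1 to 81.9 CPM in KO and 57.6 to 62.0 CPM in WT, mostly from Flt3, and the other 6 to 8.51 and 4.40 CPM in KO against 2.09 and 1.91 CPM in WT. All 6 mast cell and basophil markers were at 0 in KO and summed to 0 to 0.364 CPM in WT, and none was tested. The part of these cells in the differences was not tested, and in bulk RNA fewer cells of a type and less RNA per cell cannot be told apart.

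The pattern in activated B cells was another one. Ighg2b was 4.36-fold higher in KO, Ighg1 was higher by a smaller margin, Ighe was higher by an amount that depended on 1 WT library, and Ighd and Igha did not pass the test. Of the 8 genes 4 were higher in KO, none was lower and 4 did not pass, where 6.27% of 14110 genes tested passed, 4.85% higher and 1.42% lower. The median log2 fold change of the members was 0.26, against 0.000623 over all genes tested. Ighg2b stood at 728 and 651 CPM in KO against 166 and 151 CPM in WT libraries (log2 fold change 2.12 ± 0.06, SE, edgeR adjusted p = 4.24e-18). The 2 KO activated libraries thus lay on either side of the Ighg2b levels of WT germinal center B cells, 667 and 675 CPM.

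Ighg1 was at 101 and 92.0 CPM in KO against 54.7 and 47.8 CPM in WT activated B cells (log2 fold change 0.92 ± 0.08, SE, edgeR adjusted p = 4.13e-09). Ighe had 48 and 52 counts in KO against 19 and 6 counts in WT, or 4.91 and 5.24 CPM in KO against 1.96 and 0.594 CPM in WT. This was a 3.99-fold difference (SE 0.35 on the log2 scale, edgeR adjusted p = 0.000369). The WT replicates of Ighe lay apart, and the log2 fold change was 3.07 without the first of them and 1.37 without the second. Ighm was at 8276 and 7741 CPM in KO against 7085 and 7019 CPM in WT, with a log2 fold change of 0.19 ± 0.06 (SE, edgeR adjusted p = 0.0411). That call was lost when 1 library was left out, with edgeR adjusted p-values of 0.216 without the first KO library, 0.0862 without the first WT library and 0.187 without the second WT library.

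The remaining members did not pass in activated B cells. Ighd was at 3572 and 3513 CPM in KO against 3502 and 3556 CPM in WT, with overlapping groups (edgeR adjusted p = 0.966). Igha was at 274 and 244 CPM in KO against 248 and 245 CPM in WT, also overlapping (edgeR adjusted p = 0.542). Ighg3, at 34.9 and 28.7 CPM in KO against 27.3 and 24.7 CPM in WT (edgeR adjusted p = 0.104), and Ighg2c, at 72.5 and 65.2 CPM in KO against 60.2 and 57.0 CPM in WT (edgeR adjusted p = 0.0617), had non-overlapping levels and missed the threshold. Both passed without the second KO library (edgeR adjusted p = 0.00966 for Ighg3 and 0.0159 for Ighg2c) and in a fit of all 8 libraries (0.0291 for Ighg3 and 0.0304 for Ighg2c).

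**Figure D3:**
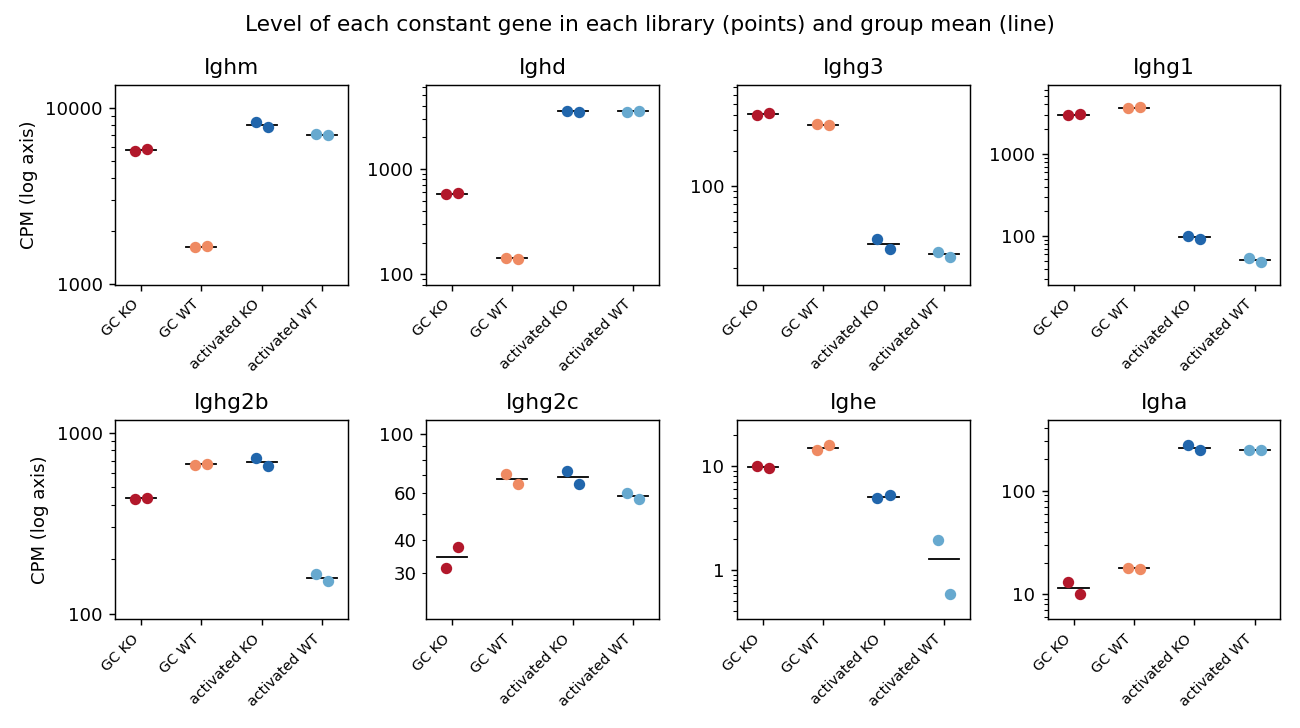
Level of each constant gene in CPM on a log axis, with 1 point per library and a line at the group mean, in KO and WT germinal center (GC) and KO and WT activated B cells. Ighg2b is at 728 and 651 CPM in KO against 166 and 151 CPM in WT activated B cells, while Ighd overlaps between them.

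Markers of other cells also moved with the knockout in the activated libraries, where 6.27% of all genes tested passed. All 8 neutrophil markers were higher in KO, with sums of 1538 to 1883 CPM in KO and 407 to 474 CPM in WT. Monocyte and macrophage markers (7 of 9 tested higher) summed to 1438 to 1579 CPM in KO and 878 to 927 CPM in WT, erythroid markers (5 of 7 tested higher) to 856 to 1045 CPM in KO and 590 to 599 CPM in WT, and mast cell and basophil markers (4 of 5 tested higher) to 24.5 to 25.8 CPM in KO and 10.1 to 10.8 CPM in WT. None of the 8 pan B cell, 8 tested T cell or 5 tested dendritic cell markers passed. Of 9 tested plasma cell markers 3 were higher and 1 lower, with sums of 763 to 768 CPM in KO and 658 to 680 CPM in WT. Of the B cell state lists, 4 of 10 germinal center markers were lower and none higher in KO, with a median log2 fold change of -0.49. Mybl1, a transcription factor of germinal center B cells, was at 2.76 and 2.32 CPM in KO against 9.89 and 9.60 CPM in WT. Fas, at 8.89 and 8.87 CPM in KO against 6.80 and 5.94 CPM in WT, went the other way without passing. Bcl6 and Mki67 were also above WT in both KO libraries without passing. The 10 germinal center markers summed to 232 to 243 CPM in KO and 236 to 237 CPM in WT. Of 8 resting follicular markers 1 was higher and 2 lower. The part of these cells in the differences of the constant genes was not tested.

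Between WT germinal center and WT activated B cells the IgG and IgE genes were higher and Ighm, Ighd and Igha lower in the germinal center. Of the 8 genes 5 were higher and 3 lower, where 82.2% of 14426 genes tested passed, 40.3% higher and 41.8% lower. Ighg1 differed most, at 3625 and 3700 CPM in WT germinal center against 54.7 and 47.8 CPM in WT activated B cells, which is 71.0-fold (log2 fold change 6.15 ± 0.06, SE). Ighg3 was 12.7-fold, Ighe 11.9-fold and Ighg2b 4.21-fold higher in the germinal center. The Ighe value rests on 19 and 6 counts in WT activated libraries, and its log2 fold change of 3.57 was 4.63 without the first and 2.93 without the second of them. Ighd was 25.1-fold, Igha 14.0-fold and Ighm 4.36-fold lower there. Ighg2c was nearly level, at 70.8 and 64.7 CPM in germinal center and 60.2 and 57.0 CPM in activated B cells (log2 fold change 0.20 ± 0.07, SE, edgeR adjusted p = 0.00728), and this call was lost with DESeq2 (adjusted p = 0.115), without the first germinal center library (edgeR adjusted p = 0.115) and without the second activated library (edgeR adjusted p = 0.092).

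The effect of the knockout differed between the cell types for 7 of the 8 genes. In a test of the difference itself, germinal center minus activated, 2 were positive, 5 negative and 1 did not pass, where 31.2% of 14992 genes passed, 17.5% positive and 13.8% negative. Ighg2b differed most, by -2.75 ± 0.07 on the log2 scale (SE, edgeR adjusted p = 2.19e-55): it fell in KO germinal center and rose in KO activated B cells. Ighg1 and Ighe also took opposite directions, and each passed in both cell types. Ighg3 had log2 fold changes of 0.31 in germinal center and 0.29 in activated B cells, and their difference was 0.02 ± 0.10 (SE, edgeR adjusted p = 0.921).

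The ratio of Ighd to Ighm differed mostly between the cell types. There were 10.2 and 10.1 Ighd counts per 100 Ighm counts in KO against 8.78 and 8.60 in WT germinal center B cells. Activated B cells had 43.2 and 45.4 in KO against 49.4 and 50.7 in WT activated B cells. The ratio was thus higher in KO in the germinal center and lower in KO among activated cells, with no overlap in either. Zfp318, whose product is needed in mice for the long transcripts that give IgD, was at 144 and 141 CPM in KO against 31.6 and 30.4 CPM in WT germinal center B cells (log2 fold change 2.21 ± 0.07, SE, edgeR adjusted p = 1.65e-231). Activated B cells had it at 390 and 406 CPM in KO against 424 and 457 CPM in WT (edgeR adjusted p = 0.13).

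Within IgG, Ighg1 led in germinal center B cells and Ighg2b in activated B cells. Ighg1 took 77.3% and 77.2% of IgG counts in KO against 77.1% and 77.6% in WT germinal center libraries, which overlapped. Ighg3 took 10.5% and 10.7% in KO against 7.16% and 6.88% in WT, and Ighg2b 11.3% and 11.2% in KO against 14.2% and 14.2% in WT germinal center libraries. Among activated cells Ighg2b took 77.8% and 77.8% of IgG counts in KO against 53.8% and 53.9% in WT, and Ighg2c 7.74% and 7.79% in KO against 19.5% and 20.3% in WT. Ighg2c has 1326 annotated exon bases against 2678 in Ighg2b. Raw counts understate Ighg2c if reads cover all these bases alike, which was not tested. Per kilobase of exon, Ighg2c took 14.4% and 14.5% in KO against 32.6% and 33.6% in WT activated libraries. On that scale Ighg2b took 71.7% and 71.7% in KO against 44.5% and 44.2% in WT. For each Ighg2c count there were 10.1 and 9.99 Ighg2b counts in KO against 2.76 and 2.65 in WT activated B cells, so the relatives that share the 78-base run moved apart.

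**Figure D4:**
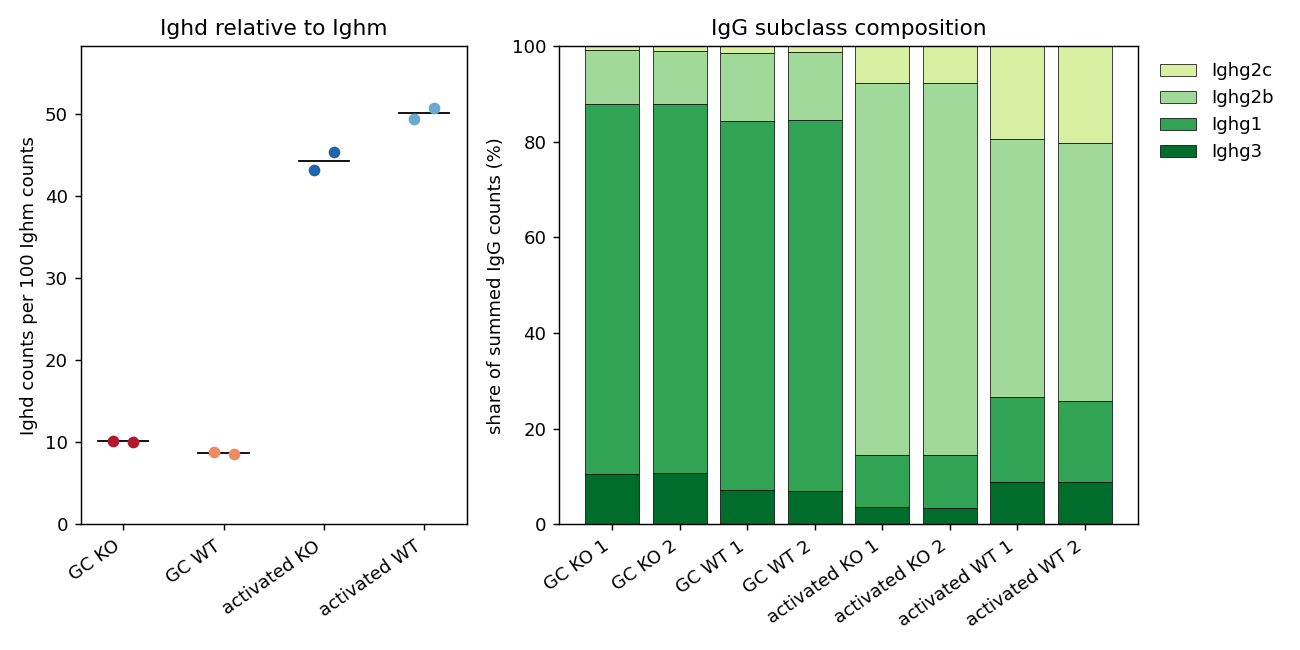
Left, Ighd counts per 100 Ighm counts, with 1 point per library and a line at the group mean; right, the percentage of summed IgG counts taken by each IgG gene in each library. Ighg2b takes 77.8% and 77.8% of IgG counts in KO against 53.8% and 53.9% in WT activated B cells, while Ighg1 takes about the same share in KO and WT germinal center (GC) libraries.

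Levels per kilobase of annotated exon were used to compare genes with each other. On that scale Ighm had the highest mean level in KO germinal center B cells, 3055 CPM per kb. It was followed there by Ighg1 (1154 CPM per kb), Ighd (307), Ighg3 (164), Ighg2b (162), Ighg2c (26.1), Ighe (6.22) and Igha (4.33), and only Ighg3 and Ighg2b overlapped among neighbours. In WT germinal center B cells Ighg1 came first with 1413 CPM per kb, before Ighm (863), Ighg2b (251), Ighg3 (132), Ighd (74.5), Ighg2c (51.1), Ighe (9.58) and Igha (6.65). In KO activated B cells the order was Ighm (4246 CPM per kb), Ighd (1865), Ighg2b (258), Igha (97.1), Ighg2c (51.9), Ighg1 (37.2), Ighg3 (12.7) and Ighe (3.20). In WT activated B cells it was Ighm (3739 CPM per kb), Ighd (1857), Igha (92.3), Ighg2b (59.2), Ighg2c (44.2), Ighg1 (19.8), Ighg3 (10.4) and Ighe (0.805). No neighbours overlapped in the last 3 groups, and Igha and Ighg2b stood in opposite order in KO and WT activated B cells.

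Of the proteins that pair with the heavy chain, 6 of 7 had higher transcript levels in the KO germinal center, none was lower, and 1 did not pass, with a list median of 0.39 on the log2 scale. In that comparison 25.1% of all genes tested passed as higher and 25.1% as lower. Igkc, the kappa light chain constant gene, was at 3396 and 3396 CPM in KO against 2517 and 2694 CPM in WT (log2 fold change 0.39 ± 0.03, SE, edgeR adjusted p = 6.01e-42). The member that did not pass was Jchain, whose product links IgM and IgA into polymers, at 487 and 499 CPM in KO against 490 and 504 CPM in WT (edgeR adjusted p = 0.838). Among activated cells, where 4.85% of all genes tested passed as higher, 3 of the 7 were higher and none lower. Jchain was among these, at 211 and 199 CPM in KO against 141 and 127 CPM in WT (log2 fold change 0.62 ± 0.06, SE, edgeR adjusted p = 5.01e-08).

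No gene for switch DNA breaks and their repair passed as higher in the KO germinal center. Of the 30 genes tested, 12 were lower, none was higher and 18 did not pass, with a median log2 fold change of -0.15. For comparison, 50.2% of all genes tested passed there, 25.1% lower and 25.1% higher. Among activated cells 2 of the 30 passed, both lower in KO, a share near the 6.27% of all genes that passed there. Prkdc, which encodes the catalytic subunit of the end-joining kinase DNA-PK, was at 63.6 and 67.9 CPM in KO against 82.3 and 80.6 CPM in WT activated B cells (log2 fold change -0.31 ± 0.07, SE, edgeR adjusted p = 0.00572). Lig4, the ligase of end joining, fell in KO germinal center B cells to 32.8 and 36.6 CPM, against 60.0 and 61.8 CPM in WT, and Hmces, which protects abasic sites in DNA, to 443 and 442 CPM, against 680 and 681 CPM in WT.

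Of 16 tested genes for switch targeting and switch transcription, 9 were lower, 3 higher and 4 not passing in the KO germinal center. Passing was common there, at 50.2% of all genes tested, against 6.27% in activated B cells. Bach2, a repressor that B cells need for class switching, was at 219 and 222 CPM in KO against 404 and 388 CPM in WT (log2 fold change -0.84 ± 0.04, SE, edgeR adjusted p = 1.30e-103), and Pax5, the B cell identity factor, rose by 0.36 on the log2 scale. Of these 16 genes 1 passed in activated B cells, Kmt2d, with a log2 fold change of -0.23 (edgeR adjusted p = 0.0125). Of heavy chain RNA processing genes, 2 of 11 tested were higher and 8 lower in KO germinal center B cells, with Zfp318 among the higher and Hnrnpf and Elavl1, which encode RNA-binding proteins, among the lower. Among activated cells 1 of 12 passed, Hnrnph1, with a log2 fold change of -0.18 (edgeR adjusted p = 0.0364).

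Receptors and factors that direct switching moved in both directions in KO germinal center B cells, with 15 of 24 tested higher, 5 lower and 4 not passing. All genes tested divided there into 25.1% higher, 25.1% lower and the rest not passing. Tgfbr1, a receptor of the cytokine that directs IgG2b and IgA, was at 38.2 and 51.0 CPM in KO against 131 and 126 CPM in WT (log2 fold change -1.52 ± 0.06, SE, edgeR adjusted p = 5.14e-121). Tgfbr2, Smad3 and Runx3 of the same list went the other way. Tgfbr2 was at 179 and 183 CPM in KO against 131 and 125 CPM in WT. Smad3 was at 27.2 and 24.4 CPM in KO against 9.53 and 9.10 CPM in WT, and Runx3 at 55.7 and 46.0 CPM in KO against 19.4 and 18.0 CPM in WT. Il5ra, the IL-5 receptor chain, was at 36.7 and 36.7 CPM in KO against 4.29 and 4.64 CPM in WT (log2 fold change 3.04 ± 0.15, SE, edgeR adjusted p = 1.14e-91). In activated B cells, where 6.27% of all genes tested passed, 2 of 26 passed, both higher. They were Il5ra, at 83.6 and 84.3 CPM in KO against 46.4 and 41.5 CPM in WT, and Nfil3, a transcription factor tied to IgE switching in mice, at 11.7 and 9.98 CPM in KO against 4.74 and 6.93 CPM in WT. Tgfbr1 was at 44.4 and 48.9 CPM in KO against 51.9 and 46.6 CPM in WT activated B cells.

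Receptors that bind immunoglobulin or belong to the same families rose in the KO germinal center for 7 of 8 genes, with none lower and a median log2 fold change of 0.72. The share of all genes tested that passed as higher there was 25.1%. Fcer2a, the low-affinity IgE receptor CD23 of follicular B cells, was at 796 and 779 CPM in KO against 339 and 339 CPM in WT (log2 fold change 1.22 ± 0.03, SE, edgeR adjusted p = 1.40e-270). Fcrl5, an Fc receptor-like protein, was at 45.8 and 43.7 CPM in KO against 4.19 and 3.55 CPM in WT. In activated B cells 3 of the 8 were higher and none lower, namely Fcrl5, Fcgr2b, the inhibitory IgG receptor, and Fcer2a, with log2 fold changes of 0.77, 0.24 and 0.20. Among all genes tested 4.85% were higher there.

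Between WT germinal center and WT activated B cells, where 82.2% of all genes tested passed, the lists divided as follows. Of the 30 break and repair genes 21 were higher and 5 lower in the germinal center, among them Hmces with a log2 fold change of 4.13. Of the 8 immunoglobulin receptors 7 were lower there and none higher, and Fcmr, the receptor for IgM, had a log2 fold change of -3.12. Of the 7 partner genes Iglc1, Iglc2, Iglc3 and Cd79b were lower in the germinal center and Jchain was higher by 1.89 on the log2 scale. Igkc did not pass, at 2517 and 2694 CPM in WT germinal center and 2630 and 2414 CPM in WT activated B cells (edgeR adjusted p = 0.482).

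The genes whose profile over the 8 libraries lay nearest to each member were found by the root mean square (RMS) difference of library-mean-centred log2(CPM + 0.5). The candidates were 8662 genes tested in the fit of all 8 libraries, with a mean of at least 10 CPM. Immunoglobulin genes, predicted genes, Rik clones and pseudogenes were left out of them. For Ighm they were Nrros, Tpst2 and Itgb7, at RMS differences of 0.0514, 0.0641 and 0.0945 log2 units, against a range of 2.35 for Ighm itself. Nrros averaged 112 CPM in KO and 30.7 CPM in WT germinal center B cells, and 156 CPM in KO and 134 CPM in WT activated B cells. For Ighd they were Maml3, Fam169b and Tent5a (RMS 0.123 to 0.138, Ighd range 4.66), for Igha Slc11a1, P4ha1 and Stum (0.132 to 0.212, Igha range 4.69), for Ighg2c Repin1, Tmx4 and Ube2g1 (0.107 to 0.122, Ighg2c range 1.19), and for Ighg3 Tedc1, Tnf and Incenp (0.178 to 0.187, Ighg3 range 4.06). For Ighg1, with a range of 6.26, the nearest were Cdc6, Kif2c and Clspn (0.311 to 0.347), and for Ighe Cfap74, Lcp2 and Fads1 (0.394 to 0.495). Ighg2b was matched least closely for its range of 2.26, the nearest being Cdk5rap1, Clec12a and Dhrs3 (0.378 to 0.513).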

How the data were processed

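The authors deposited raw counts of reads, 1 whole number per gene and library. Trimmomatic, DESeq2 and the build mm10 are named in the submitters' processing notes. The aligner, the counter and the use of strand were not given in the sources used here. Entries that name no gene (no feature, 47.2% to 53.9%, ambiguous, 1.12% to 1.26%, and others) stayed out of library sizes and tests. Symbols came from the files and coordinates, exon lengths and transcripts from GENCODE M21 (GRCm38), in which 54349 of 55401 identifiers were found.

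Groups and replicate numbers came from the sample titles. The counts were tested with edgeR 4.0.16 in R 4.3.3 (TMM, filterByExpr, quasi-likelihood F test, Benjamini-Hochberg adjustment over all genes tested, threshold 0.05). KO was set against WT in each cell type from its 4 libraries, WT germinal center with WT activated B cells from 4 libraries, and the difference of the KO effects in 1 fit of 8. Isotype shares are counts of a gene over the summed counts of the 8 members, with exact (Clopper-Pearson) binomial intervals. CPM values use 1 TMM scale over the 8 libraries, while log2 fold changes come from the fit of each comparison. Replicates differed by more than sampling noise, with a chi-square per degree of freedom over all genes of 1.38 to 2.28, so none was counted as a repeat.

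Named genes are the 8 members, up to 3 genes per pathway list and comparison with the lowest p, examples of the marker lists, and the 3 nearest profiles per member. Some genes that the rule takes are left out and not reported here. The members and lists were chosen with earlier results of these data known. H2afx, 1 of the 31 break and repair genes listed, had no row by that symbol. The procedure was tested on simulated counts. Alternatives were RLE scaling, scaling without immunoglobulin genes, DESeq2 1.42.0, no filter on low counts, a replicate block, all 8 libraries in 1 fit, leaving out each library, and other definitions of the shares.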

Additional observations from a re-analysis of the deposited data

Results flagged for a closer look

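For 7 of the 8 constant genes the knockout effect in germinal center B cells differed from that in activated B cells, by edgeR's test of the difference itself (germinal center minus activated, log2 scale, SE, 4 groups of 2 libraries). In that test 31.2% of 14992 genes passed, 17.5% positive and 13.8% negative. The difference was positive for Ighm, 1.64 ± 0.06 (edgeR adjusted p = 3.62e-42), and for Ighd, 2.04 ± 0.07 (edgeR adjusted p = 4.51e-47). It was negative for Ighg1, -1.21 ± 0.08 (edgeR adjusted p = 2.21e-24), for Ighg2b, -2.75 ± 0.07 (edgeR adjusted p = 2.19e-55), and for Ighg2c, -1.20 ± 0.11 (edgeR adjusted p = 2.41e-16). Ighe, at -2.62 ± 0.35 (edgeR adjusted p = 1.07e-09), and Igha, at -0.69 ± 0.14 (edgeR adjusted p = 2.77e-05), were negative as well. The Ighe difference was -3.69 without the first and -1.97 without the second WT activated library. Of these, Ighg1, Ighg2b and Ighe passed with opposite signs in the 2 cell types. Ighm passed as higher in both, and Ighd, Ighg2c and Igha passed in germinal center B cells only. In activated B cells Ighm (edgeR adjusted p = 0.0411) and Ighg2c (edgeR adjusted p = 0.0617) lay near the threshold, and both calls changed in some alternatives.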

How the results depend on the processing

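Among the recomputed log2 fold changes of single members, 324 kept their direction and side of the threshold, 6 lost the call, 6 gained it and 8 changed sign. Those kept included all 80 of KO against WT germinal center B cells. The sign changes were in genes that had not passed, Ighd and Igha in activated B cells and Ighg3 in the difference of the KO effects. Leaving out each library in turn gave -0.00599 to 0.0197 for Ighd and -0.0104 to 0.155 for Igha in activated B cells, and -0.117 to 0.166 for the difference of the KO effects on Ighg3, which was -0.00199 with RLE factors and -0.0024 with DESeq2. The count of all genes called fell with DESeq2 to 4342 in germinal center B cells (6698 with edgeR), to 349 in activated B cells (885) and to 3069 for the difference of the KO effects (4685), and to 465 in activated B cells with no filter on low counts. The causes were not tested.

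The change in the Ighm plus Ighd share depends on its definition. It was 34.9 percentage points, KO minus WT, in germinal center B cells, against 35.4 per kilobase of exon, 34.2 without Ighd and 31.4 for Ighm alone. In activated B cells it was -4.18, against -3.10, -5.42 and -0.36, so Ighm alone hardly differed there. Between WT germinal center and WT activated B cells it was -68.1, against -62.6, -67.4 and -38.5. Leaving out 1 library gave 34.9 to 34.9, -4.43 to -3.94 and -68.2 to -67.9.

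A replicate block raised the count in activated B cells to 1388 genes and brought Ighg3 (edgeR adjusted p = 0.0367) and Ighg2c (edgeR adjusted p = 0.0169) past the threshold. Whether samples with the same number belong together was not settled. Their deviations correlated at -0.0226 to 0.0141, but counting noise makes up much of such single-gene deviations, so a value near 0 cannot exclude it. Depth limits Ighe in activated WT libraries, where its share of heavy constant counts was 0.0176% (95% exact interval 0.0106% to 0.0274%) and 0.00535% (0.00196% to 0.0116%).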

Other observations

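The light chains also differed between the cell types. The lambda genes Iglc1, Iglc2 and Iglc3 made up 8.23% and 8.32% of light chain constant CPM in KO against 7.46% and 7.18% in WT germinal center B cells, against 22.5% and 22.2% in KO against 24.9% and 25.4% in WT activated B cells. Lambda was thus relatively more abundant in KO than in WT germinal center B cells and less abundant in KO than in WT activated B cells, without overlap. There were 273 and 280 heavy constant CPM per 100 light constant CPM in KO against 239 and 227 in WT germinal center B cells. In activated B cells the ratio was 315 and 339 in KO against 318 and 343 in WT, which overlapped.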
